A study of Homo sapiens with 5 samples.

Results

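The nuclear genes that encode the subunits of the respiratory chain and of ATP synthase were described in HepG2 cells depleted of the histone demethylase LSD2. Members were all genes with a probe set of 1 gene symbol whose symbol is that of a subunit of complexes I to V, matched by symbol pattern and without the assembly factors. There were 74 members among 12893 genes, with 32 in complex I, 3 in complex II, 7 in complex III, 14 in complex IV and 18 in complex V. The pattern also took in ATP5MC2P1, a pseudogene of a c-ring gene. The 74 members had 131 probe sets. The selection used symbols only, not measured values.

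HepG2 is a line of human liver carcinoma cells. Knockdown cells received 1 of 3 different small interfering RNAs (siRNAs) against LSD2, the product of KDM1B, each measured on 1 array. Control cells received an siRNA against GL3, a luciferase sequence foreign to human cells, and were run on 2 arrays. Since the labels make the second a technical replicate, both were averaged into 1 control sample. All cells grew in medium with 25 mM glucose and 10% serum, were transfected by lipofection at about 50% confluence and were taken for RNA 3 to 4 days later. Whether the siRNA arrays stem from independent cultures is not stated. With the control averaged, the p-values rest on the spread among the 3 siRNA arrays, each of a different siRNA. Differences between siRNAs and technical spread cannot be told apart in it. The work is in 1 cancer cell line, and the deposited values hold no expression levels, so neither the presence of hepatic transcripts nor the abundance of a subunit could be checked.

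The respiratory chain passes electrons from NADH and succinate to oxygen across the inner mitochondrial membrane. Complex I takes them from NADH and complex II from succinate, ubiquinone carries them to complex III, and cytochrome c carries them on to complex IV. Complexes I, III and IV pump protons, and complex V, the ATP synthase, uses the proton gradient to make ATP. A few catalytic subunits are encoded in mitochondrial DNA and had no values here, so all members are nuclear genes, whose promoters are known as targets of the factors NRF1, GABP and YY1. Hepatocytes hold many mitochondria, and the same chain takes up the electrons released by fatty acid oxidation.

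Values are on the log2 scale. A deposited value is given relative to the median of its own probe set over the 5 arrays, and a gene with several probe sets has their mean. A difference is that value minus the mean of the control arrays. KDM1B, the targeted gene, stood at -2.60, -1.73 and -1.38 under siRNAs 1, 2 and 3. Bacterial poly-A transcripts added before labelling placed control array 1 with siRNAs 1 and 2, and control array 2 with siRNA 3. Over 24 such probe sets the medians of control array 2 and siRNA 3 were -1.45 and -1.39 relative to control array 1, against 0.04 and 0.07 for siRNAs 1 and 2. Comparisons within these spike-in sets are given below beside the pooled ones.

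As a group the subunit genes lay close to the control under every siRNA. The median over the 74 members was -0.04 under siRNA 1, 0.12 under siRNA 2 and 0.11 under siRNA 3, where the medians of all genes were -0.04, 0.03 and 0.01. Against the control array of the same spike-in set the members' medians were -0.02, 0.05 and 0.10, and those of all genes -0.08, -0.03 and 0.04. In the limma fit over all genes, 0 of 74 members reached an adjusted p under 0.05, and 0% of all genes did. At an unadjusted p under 0.05 limma had 0 members and 1.69% of all genes. The lowest unadjusted p among members was 0.0557 in limma (adjusted p = 0.9999), for COX4I2. The fit had 2 residual degrees of freedom, and the number of arrays limits what it can call.

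**Figure D1:**
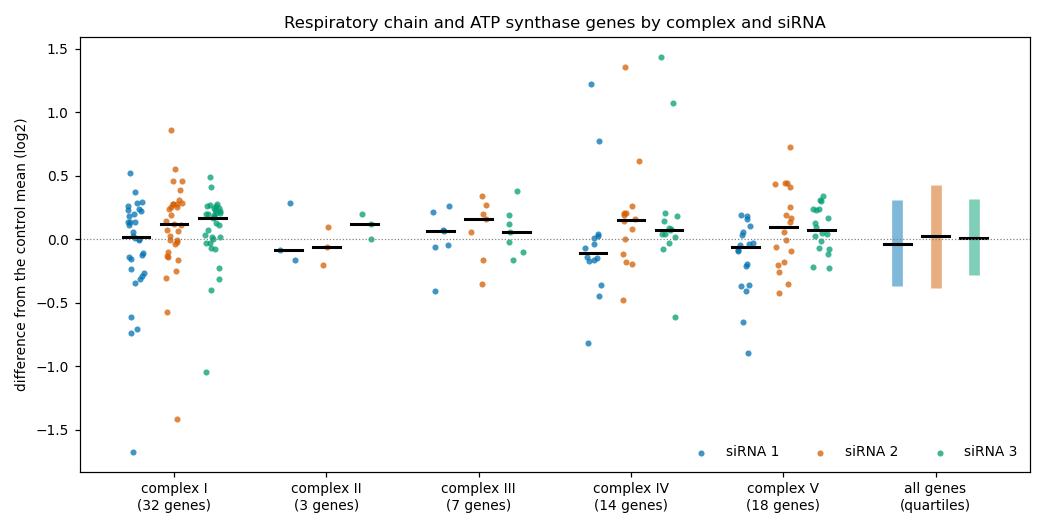
Difference of each member from the control mean (log2, vertical axis) by complex and siRNA. Points are genes, black bars are medians over genes, and coloured bars at the right span the quartiles of all 12893 genes. The medians lie between -0.11 and 0.17, while single genes lie below -1 in complex I and above 1 in complex IV.

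The members lay closer to the control than genes did as a whole. The absolute mean difference over the 3 siRNAs was under 0.25 in 62 of 74 members (83.8%), against 48.8% of all genes. Its median was 0.12 over the members and 0.26 over all genes. The technical replicates of the control showed the same narrowness: their median absolute difference was 0.11 over the members and 0.31 over all genes, and they were under 0.25 apart in 75.7% of members and 41.9% of all genes. Past 1.5-fold, the counts under siRNAs 1, 2 and 3 were 2, 4 and 2 members higher, against 13.8%, 18.7% and 13% of all genes. On the lower side they were 7, 1 and 2 members, against 15%, 16.9% and 12% of all genes.

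**Figure D2:**
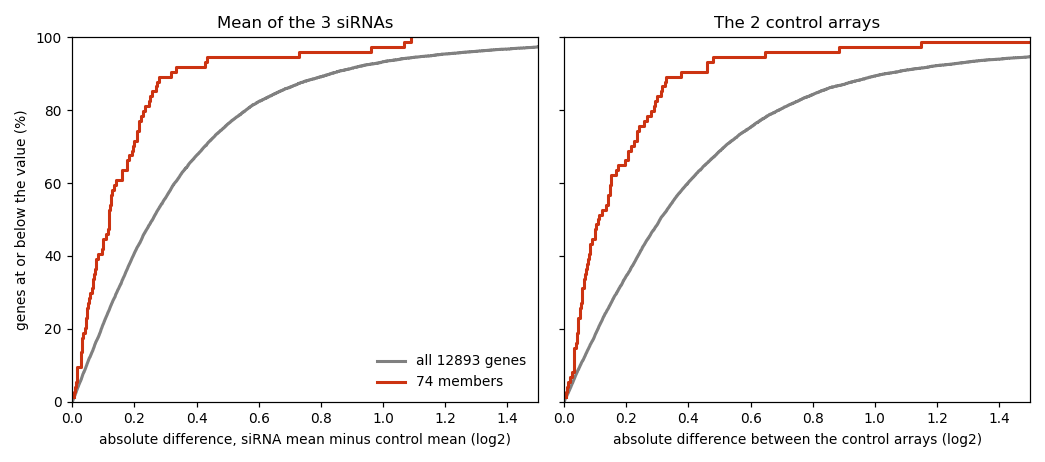
Cumulative share of genes (%, vertical axis) at or below a given absolute difference (log2, horizontal axis), for the mean of the 3 siRNAs against the control mean (left) and between the control arrays (right). In both panels the curve of the 74 members (red) lies above that of all 12893 genes (grey): at 0.25 it stands at 83.8% against 48.8% on the left and at 75.7% against 41.9% on the right.

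Of the members, 18 (24.3%) were higher than the control mean under all 3 siRNAs, against 17.9% of all genes, and 5 (6.76%) were lower, against 18.2%. All 3 siRNA arrays lay above both control arrays in 12 members (8.63% of all genes) and below both in 3 (10.1% of all genes). Complex I held 12 of the 18 higher members and 3 of the 5 lower ones. Against the control array of the same spike-in set the counts were 18 higher (15.4% of all genes) and 8 lower (18.4%). These counts depended on single arrays. Without siRNA 1, 34 members were higher under both other siRNAs (30.7% of all genes) and 9 lower (27.7%), with 21 above both control arrays (18.4%) and 4 below (17.3%). Without siRNA 2, 24 were higher (25.8%) and 10 lower (27.9%), with 18 above (13.7%) and 6 below (16.2%). Without siRNA 3, 24 were higher (29.2%) and 19 lower (30.9%), with 17 above (16.6%) and 11 below (20.2%). When siRNA 3 was left out, the excess of higher over lower members thus shrank to 24 against 19. Without control array 1, 25 members lay above the remaining control array under every siRNA (23.6% of all genes) and 11 below it (20.2%). Without control array 2 there were 18 above (17.6%) and 7 below (24.5%). The siRNA 1 array read lowest most often. In 52 members (70.3%) the siRNA 2 array was above the siRNA 1 array, against 52.8% of all genes, and in 46 (62.2%) the siRNA 3 array was, against 54.5%. A pattern of low siRNA 1 and high siRNAs 2 and 3, relative to the control mean, was found in 16 members (21.6%), against 12.8% of all genes. Arrays of siRNAs 2 and 3 were close to even, with siRNA 3 the higher in 39 members (52.7%), against 49.6% of all genes. Of the 5 hepatic markers examined, the secreted proteins ALB, AFP, APOA1, TTR and SERPINA1, 4 were below the control under siRNA 1. Under siRNAs 2 and 3, 4 and 5 of the 5 were above it. Among all 12893 genes, 6011, 6669 and 6617 were above the control under siRNAs 1, 2 and 3. The 5 markers are too few to compare with all genes by such counts. ALB stood at -2.02, 3.03 and 2.69, with control arrays 1.005 apart. Their part in the order of the siRNAs among the members was not tested.

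**Figure D3:**
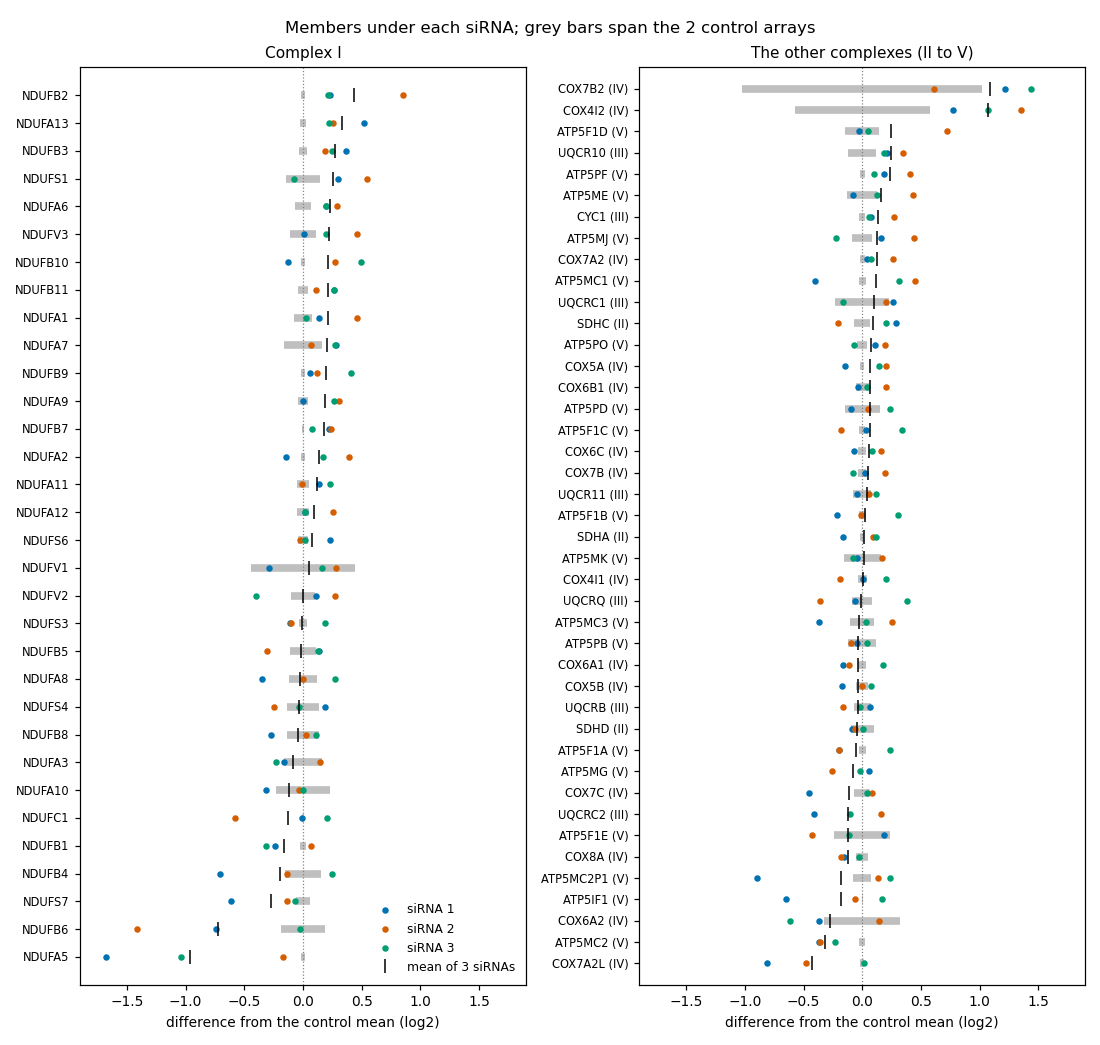
Difference of every member from the control mean (log2, horizontal axis) under siRNA 1 (blue), siRNA 2 (orange) and siRNA 3 (green), ordered by the mean of the 3 (black tick), with complex I on the left and complexes II to V on the right. Grey bars span the control arrays around their mean; they are widest in COX7B2 and COX4I2, the highest members, and narrow in NDUFA5 and COX7A2L, the lowest on each side.

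Promoters were available for 63 of the 74 members, as 76 windows of 300 bases around annotated starts in RefSeq (GRCh38.p14). They were searched on both strands for the motifs of 6 factors. The NRF1 motif, GCGC followed by A, any base and GCGC again, stood in 15 windows, 19.7% of the members' windows. It stood in 5.78% of all 35116 windows of the table and in 9.4% of those of genes on the array. The YY1 motif, which is the run in capitals in the ATP5PF stretch below, stood in 8 windows (10.5%, against 1.2% of all windows and 2.22% of those of array genes). ACCGGAAG (GABP) stood in 4 (5.26%, against 2.17% and 3.5%). TCAAGGTCA (ERRA) stood in 1 window (1.32%, against 0.353% and 0.199%). GGGCGG (SP1) was as frequent as in array genes, at 63.2% against 62.9% and 45% of all windows, and CCAAT stood in 34.2%, against 34.9% and 34.6%. The 15 members with the NRF1 motif had a median mean difference of 0.08, and the 48 without it 0.00. Of these 15, 3 were higher under all 3 siRNAs and 0 lower, where 17.9% and 18.2% of all genes were. A match is a run of letters, not a measured binding site. The stretches below, each upstream of the start and on the gene's strand, are shown for members that are described next, with the NRF1, GABP or YY1 match in capitals.
NDUFA9, NRF1, chr12:4648999-4649078, plus strand: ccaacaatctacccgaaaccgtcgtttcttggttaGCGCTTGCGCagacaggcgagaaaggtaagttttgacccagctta
NDUFA12, NRF1, chr12:95003769-95003848, minus strand: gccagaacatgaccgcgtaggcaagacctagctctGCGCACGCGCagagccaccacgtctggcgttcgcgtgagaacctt
NDUFB4, NRF1, chr3:120596238-120596317, plus strand: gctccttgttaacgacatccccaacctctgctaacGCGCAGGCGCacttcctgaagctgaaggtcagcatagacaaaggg
SDHA, NRF1, chr5:218240-218319, plus strand: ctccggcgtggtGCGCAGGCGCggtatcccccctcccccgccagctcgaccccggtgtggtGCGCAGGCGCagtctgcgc
NDUFA13, GABP, chr19:19516145-19516224, plus strand: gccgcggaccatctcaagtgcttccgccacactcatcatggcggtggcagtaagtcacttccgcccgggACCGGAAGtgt
ATP5PF, YY1, chr21:25735067-25735146, minus strand: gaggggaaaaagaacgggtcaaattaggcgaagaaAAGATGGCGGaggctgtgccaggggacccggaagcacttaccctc
SDHA holds the NRF1 motif 2 times in its stretch, in the same letters. NDUFA9, NDUFA12, NDUFA13 and ATP5PF were higher under all 3 siRNAs, and SDHA and NDUFB4 were not. These stretches were chosen for display. Of all members with a match, 3 of 15 (NRF1), 1 of 4 (GABP) and 3 of 7 (YY1) were higher, against 17.9% of all genes. Lower under all 3 were 0, 0 and 1 of them, against 18.2%.

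Complex I, the NADH dehydrogenase, had medians of 0.02, 0.12 and 0.17 over its 32 members under siRNAs 1, 2 and 3, and 0.04, 0.09 and 0.11 within spike-in sets. Its 5 measured core subunits, which carry the flavin and the iron-sulfur clusters or line the quinone site, had medians of -0.11, 0.28 and -0.07, and -0.14, -0.07 and 0.07 within spike-in sets, so that the sign under siRNAs 2 and 3 depended on the control array. The 27 accessory subunits had 0.02, 0.11 and 0.20. Among the accessory subunits 12 were higher under all 3 siRNAs and 2 lower, and among the core subunits 0 and 1. Of all genes, 17.9% were higher and 18.2% lower, and 5 core subunits are too few to compare the sets by such counts. No limma call was made in either set.

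The core subunits did not move as one. NDUFS1, the largest iron-sulfur subunit, stood at -0.02 and -0.31 in control arrays 1 and 2 and 0.13, 0.38 and -0.24 with siRNAs 1, 2 and 3, with a mean difference of 0.26 ± 0.31 (SD, n = 3 siRNAs). It was 0.40 without control array 1, 0.11 without control array 2, 0.11 without siRNA 2 and 0.42 without siRNA 3. NDUFV1, which binds the flavin and oxidises NADH, read 0.28 and -0.61 in the controls and -0.46, 0.11 and 0.00 with the siRNAs. Its siRNA arrays all lay between the control arrays, and its mean turned from 0.49 without control array 1 to -0.39 without control array 2. NDUFS7, which holds the last iron-sulfur cluster before ubiquinone, read 0.01 and 0.13 in control arrays 1 and 2 and -0.54, -0.06 and 0.00 with siRNAs 1, 2 and 3. All 3 siRNA arrays were below both control arrays, but only siRNA 1 by more than the gap between the controls, and the mean of -0.27 was -0.10 without siRNA 1.

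Several accessory subunits read slightly above the control on every array. NDUFB2, in the distal part of the membrane arm, read -0.14 and -0.17 in the controls and 0.08, 0.71 and 0.06 with the siRNAs. The arrays did not overlap, and siRNA 2 was far the highest: the mean difference of 0.43 ± 0.37 (SD, n = 3 siRNAs) was 0.22 without siRNA 2. Its 3 probe sets had mean differences of 0.23, 0.49 and 0.59. NDUFA13, also known as the cell death regulator GRIM-19, read -0.20 and -0.25 in control arrays 1 and 2 and 0.30, 0.03 and 0.00 with siRNAs 1, 2 and 3. Here siRNA 1 was the highest, and the mean difference was 0.33 ± 0.16 (limma SE 0.39, unadjusted p = 0.435). NDUFB3, NDUFB7, NDUFB9, NDUFB11 and NDUFA6, named after their values were seen, also had no overlap, with mean differences of 0.27, 0.18, 0.20, 0.21 and 0.23; 8.63% of all genes lay above both control arrays in this way. The mean of NDUFB9 was 0.089 without siRNA 3. The remaining 5 higher members, NDUFA1, NDUFA7, NDUFA9, NDUFA12 and NDUFV3, overlapped the controls. NDUFA12, whose NRF1 match is printed above, stood at 0.02, 0.26 and 0.02, with a mean of 0.10 that was 0.019 without siRNA 2, and NDUFA9 stood at 0.00, 0.31 and 0.26.

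The lowest values of complex I belonged to NDUFA5 and NDUFB6. NDUFA5, a subunit of the arm that leads electrons to ubiquinone, read 0.48 and 0.45 in the controls and -1.21, 0.30 and -0.58 with the siRNAs. The arrays did not overlap, and the mean difference was -0.96 ± 0.76 (SD, n = 3 siRNAs), or 51.3% of the control, with a limma SE of 0.67 and an unadjusted p = 0.21. It came from 1 of 2 probe sets. The probe set with the suffix s, which may match several transcripts, read 1.27 and 0.56 in control arrays 1 and 2 and -2.17, 0.00 and -1.16 with siRNAs 1, 2 and 3. The probe set with the plain suffix read -0.31 and 0.34 in the controls and -0.25, 0.60 and 0.00 with the siRNAs, with a mean difference of 0.10. The direction for NDUFA5 therefore differed between its probe sets. The mean was -0.60 without siRNA 1.

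NDUFB6, a subunit of the distal membrane arm that was named after its values were seen, read 0.05 and 0.43 in control arrays 1 and 2 and -0.50, -1.18 and 0.22 with siRNAs 1, 2 and 3. Arrays of siRNAs 1 and 2 were below both controls, and siRNA 3 lay between them. Its mean difference was -0.73 ± 0.70 (SD, n = 3 siRNAs), and -0.38 without siRNA 2. Both probe sets were lower under siRNAs 1 and 2, by different amounts: the plain one stood at -1.13 and -2.34 and the one with the suffix s at -0.35 and -0.50. NDUFB4, likewise named afterwards, was past 1.5-fold lower under siRNA 1 alone, at -0.71, -0.14 and 0.25. The low value came from its plain probe set, at -1.40 under siRNA 1 with control arrays 0.61 apart. The probe set with the suffix s stood at -0.02 there.

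**Figure D4:**
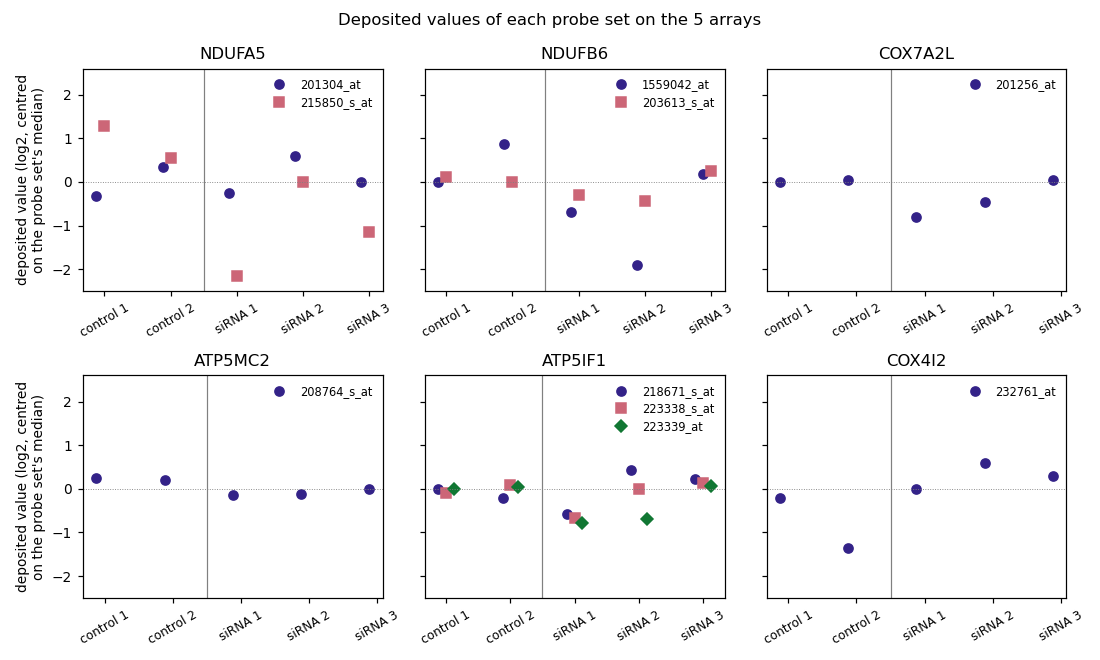
Deposited values (log2, relative to the probe set's median, vertical axis) of each probe set on the 5 arrays for 6 members, with 1 symbol per probe set and a vertical line between control and siRNA arrays. The probe sets of NDUFA5 part under siRNAs 1 and 3, those of ATP5IF1 lie together under siRNA 1 at -0.57, -0.67 and -0.79, and control array 2 of COX4I2 stands apart at -1.35.

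Complex II, succinate dehydrogenase, is the link between the citrate cycle and the chain and pumps no protons. Its medians were -0.08, -0.06 and 0.12 over 3 members, and 0.01, 0.04 and 0.10 within spike-in sets. SDHA, the flavoprotein that oxidises succinate, read -0.03 and 0.00 in the controls and -0.18, 0.08 and 0.10 with the siRNAs, with a mean difference of 0.02 ± 0.16 (SD, n = 3 siRNAs). SDHD, a membrane anchor, read -0.04 and 0.16 in control arrays 1 and 2 and -0.02, 0.00 and 0.06 with siRNAs 1, 2 and 3, all inside the control gap. SDHC, the other anchor, had 6 probe sets and stood at 0.29, -0.20 and 0.20. The siRNA arrays of all 3 genes overlapped the controls or lay on both sides of them.

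Complex III, the cytochrome bc1 complex, had medians of 0.07, 0.16 and 0.06 over 7 members, and 0.03, 0.13 and 0.06 within spike-in sets. CYC1, the cytochrome c1 that hands electrons to cytochrome c, read -0.03 and -0.08 in the controls and 0.02, 0.21 and 0.00 with the siRNAs. Its siRNA arrays were above both controls, by a mean difference of 0.13 ± 0.12 (SD, n = 3 siRNAs), which was 0.066 without siRNA 2. UQCR10, a small subunit, had no overlap either and stood at 0.21, 0.34 and 0.19. The mean of 0.25 came from the plain probe set, at 0.50, while the one with the suffix s stood at 0.00, and it was 0.13 without control array 2. UQCRC1, a core protein, read 0.03 and -0.43 in control arrays 1 and 2 and 0.06, 0.00 and -0.37 with siRNAs 1, 2 and 3. Each of its siRNA arrays read like the control array of its own spike-in set, with differences of 0.03, -0.03 and 0.06. UQCRQ, a small subunit, had the widest range between siRNAs, at -0.06, -0.36 and 0.38. The lowest members by the weakest siRNA, UQCRB and UQCR11, had mean differences of -0.04 and 0.04.

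Complex IV, cytochrome c oxidase, reduces oxygen to water. Its medians were -0.11, 0.15 and 0.08 over 14 members, and -0.10, 0.03 and 0.08 within spike-in sets. Its 11 subunits of general expression, COX7A2L included, had medians of -0.14, 0.08 and 0.07. COX4I1, the general form of the subunit that regulates the oxidase by ATP, read -0.04 and 0.04 in the controls and 0.01, -0.19 and 0.20 with the siRNAs, with a mean difference of 0.01 ± 0.20 (SD, n = 3 siRNAs). COX5A, another general subunit, had a mean difference of 0.07 ± 0.19, and the zinc-binding COX5B one of -0.03 ± 0.13. COX8A read 0.00 and 0.10 in control arrays 1 and 2 and -0.10, -0.13 and 0.02 with siRNAs 1, 2 and 3, and was the only member of complex IV that was lower than the control mean under all 3, by a mean of -0.12. Without control array 2 the mean was -0.072 and siRNA 3 stood at 0.019, above the remaining control array. COX7A2, named after its values were seen, was above both controls at 0.04, 0.26 and 0.08, with a mean of 0.13 that was 0.059 without siRNA 2.

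COX7A2L, which joins complexes III and IV into supercomplexes, had the lowest mean of complex IV. It read 0.00 and 0.04 in the controls and -0.80, -0.46 and 0.03 with the siRNAs. The siRNA 1 and 2 arrays lay well below the controls, which were 0.04 apart, and the siRNA 3 array lay between them. The mean difference was -0.43 ± 0.42 (SD, n = 3 siRNAs), or 74.4% of the control (limma SE 0.48, unadjusted p = 0.417). It was -0.65 without siRNA 3 and -0.23 without siRNA 1. It rests on 1 probe set. Both arrays with a lower value share the first spike-in set with control array 1, against which they stood at -0.80 and -0.46.

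The tissue-restricted isoforms of complex IV included the 2 highest members by mean difference, with control arrays far apart. COX4I2, the lung and hypoxia isoform of COX4I1, read -0.20 and -1.35 in control arrays 1 and 2 and 0.00, 0.58 and 0.30 with siRNAs 1, 2 and 3. All siRNA arrays were above both controls, and the mean difference was 1.07 ± 0.29 (SD, n = 3 siRNAs; limma SE 0.43). It was 1.64 without control array 1, and 0.49 with that array as the only control. COX7B2, the testis isoform of COX7B, read 0.00 and -2.04 in the controls and 0.20, -0.41 and 0.41 with the siRNAs. Its mean of 1.09 ± 0.43 was 0.07 without control array 2, and 2.11 with that array as the only control, and its siRNA 2 array lay between the controls. COX6A2, the heart and muscle isoform of COX6A1, stood at -0.36, 0.15 and -0.62, with control arrays 0.65 apart. Its mean of -0.28 was 0.04 without control array 1, and -0.60 with that array as the only control. Each of these rests on 1 probe set, and 0 of the 3 had control arrays under 0.5 apart, where 70 of all 74 members and 68.7% of all genes did.

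Complex V had medians of -0.06, 0.10 and 0.08 over 18 members, and -0.18, 0.02 and 0.14 within spike-in sets. Its 5 ATP5F1 genes, which encode the catalytic head and the central stalk, had medians of -0.03, -0.18 and 0.24 under siRNAs 1, 2 and 3. The median under siRNA 1 was the value of ATP5F1D, and that under siRNA 2 the value of ATP5F1C, so these medians do not describe the head alone. ATP5F1A, the alpha subunit, read 0.00 and 0.06 in control arrays 1 and 2 and -0.17, -0.17 and 0.26 with siRNAs 1, 2 and 3. ATP5F1B, the catalytic beta subunit, read -0.02 and 0.04 in the controls and -0.20, 0.00 and 0.31 with the siRNAs. For both, siRNA 3 was above and siRNA 1 below the controls, and the mean differences were -0.05 ± 0.25 and 0.03 ± 0.26 (SD, n = 3 siRNAs). ATP5F1D, the delta subunit of the central stalk, stood apart under siRNA 2 alone, at -0.03, 0.73 and 0.05, and its mean of 0.25 was 0.010 without siRNA 2, 0.39 without control array 1 and 0.11 without control array 2.

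Other parts of complex V differed among themselves. The 4 genes of the peripheral stalk that were measured, which holds the head still against the turning rotor, had medians of 0.03, 0.12 and 0.07. ATP5PF, a stalk subunit with the YY1 match printed above, read -0.08 and -0.12 in control arrays 1 and 2 and 0.09, 0.31 and 0.00 with siRNAs 1, 2 and 3. Its arrays did not overlap, with a mean difference of 0.23 ± 0.16 (SD, n = 3 siRNAs), and 0.14 without siRNA 2. ATP5PB, of the same stalk, stood at -0.04, -0.09 and 0.04, inside its control gap of 0.24. The 3 c-ring genes encode the same mature protein, the rotor ring of the membrane part. They had -0.40, 0.45 and 0.31 for ATP5MC1, -0.36, -0.36 and -0.23 for ATP5MC2, and -0.37, 0.26 and 0.03 for ATP5MC3, so that siRNA 1 was the only one under which all 3 were below the control.

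ATP5MC2 was the member of complex V that read most evenly below the control. Its only probe set, with the suffix s, read 0.25 and 0.20 in the controls and -0.14, -0.13 and 0.00 with the siRNAs. All siRNA arrays were below both controls, which were 0.05 apart. The mean difference was -0.32 ± 0.08 (SD, n = 3 siRNAs), or 80.3% of the control (limma SE 0.38, unadjusted p = 0.441), and it lay between -0.36 and -0.29 when any array was left out. The pseudogene ATP5MC2P1 had the widest range in the complex, at -0.90, 0.14 and 0.23. A probe set with the suffix s may match near-identical transcripts, so the split between ATP5MC2 and its copies is uncertain.

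ATP5IF1, which blocks the ATP synthase from running backwards, was low under siRNA 1 alone and was named after its values were seen. It read -0.03 and -0.02 in control arrays 1 and 2 and -0.68, -0.08 and 0.14 with siRNAs 1, 2 and 3. All 3 of its probe sets were below the control under siRNA 1, at -0.47, -0.68 and -0.81. Under siRNA 2 they parted, at 0.54, 0.00 and -0.71. The mean difference of -0.18 was 0.05 without siRNA 1.

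Probe sets of the same member did not always share a sign. Of 34 members with several probe sets, 19 had mean differences on both sides of 0. The share over all genes with several probe sets is not given here, so this count does not set members apart. The median gap between the lowest and highest probe set of a gene was 0.17, and the widest was 2.12 in NDUFA5. Among the 131 probe sets, 69 are designed to match 1 transcript, 42 (suffix s) match several transcripts and 20 (suffix x) may also match unrelated ones. With the first kind alone, 56 members kept a value and 10 of these were higher under all 3 siRNAs. The share of all genes under this rule is not given here, and with all probe sets it was 17.9%. The complex I median over the mean differences turned from 0.09 to -0.01. Among the members named above with overlapping arrays, the means of many took the other sign when 1 or another array was left out. In complexes I to III these were NDUFV1, NDUFB4, SDHA, SDHC, SDHD, UQCRC1, UQCRB, UQCR11 and UQCRQ. In complexes IV and V they were COX4I1, COX5B, COX6A2, ATP5F1A, ATP5F1B, ATP5PB, ATP5MC1, ATP5MC3, ATP5MC2P1 and ATP5IF1.

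Among other genes of the pathway, limma made no call at an adjusted p under 0.05 or an unadjusted p under 0.05 in any list. Of 51 assembly factors, which build the complexes, 5 were higher and 10 lower under all 3 siRNAs, against 17.9% and 18.2% of all genes. Their medians were -0.16, 0.03 and -0.01. The lowest was TIMMDC1, a complex I assembly factor that is also in the import list by its symbol. It read 0.33 and 0.41 in the controls and -0.18, -1.54 and 0.00 with the siRNAs, with no overlap, a mean of -0.94 ± 0.84 (SD, n = 3 siRNAs) and -0.46 without siRNA 2. The highest, SDHAF2, which attaches the flavin to SDHA, stood at 0.44, 0.29 and 0.26.

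The electron carriers and entry enzymes had medians of 0.04, 0.05 and 0.19 over 18 genes. Under all 3 siRNAs 6 were higher and 2 lower, against 17.9% and 18.2% of all genes. CYCS, the cytochrome c that links complexes III and IV, read 0.46 and 0.08 in control arrays 1 and 2 and -0.46, -0.51 and -0.02 with siRNAs 1, 2 and 3. All siRNA arrays were below both controls, with a mean difference of -0.60 ± 0.27 (SD, n = 3 siRNAs; limma unadjusted p = 0.214). Against the control of its spike-in set it stood at -0.92, -0.97 and -0.10. ETFDH, which feeds electrons from fatty acid oxidation into ubiquinone, was above both controls at 0.31, 1.06 and 0.80.

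Regulators of mitochondrial biogenesis had medians of 0.02, -0.19 and -0.04 over 16 genes. Under all 3 siRNAs 2 were higher and 3 lower, against 17.9% and 18.2% of all genes. NRF1, whose motif was searched above, read 0.40 and 0.18 in the controls and -0.06, -0.25 and -0.17 with the siRNAs. Its siRNA arrays were all below both controls, with a mean difference of -0.46 ± 0.10 (SD, n = 3 siRNAs), or 72.9% of the control (limma SE 0.38, unadjusted p = 0.285). It was -0.34 without control array 1, and -0.57 with that array as the only control. TFAM, which packages and transcribes mitochondrial DNA, stood at 0.03, -0.22 and -0.16. PPARGC1A, the coactivator PGC-1 alpha, stood at -1.61, -0.02 and 0.79, with control arrays 0.96 apart. POLG, the mitochondrial DNA polymerase, was above both controls at 1.16, 0.83 and 0.43, though against the control of its spike-in set siRNA 3 stood at 0.13.

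The 11 citrate cycle genes had medians of -0.09, 0.29 and 0.07, with 3 higher and 0 lower under all 3 siRNAs. For this list and those that follow, the shares of all genes were 17.9% higher and 18.2% lower. DLST stood at 0.66, 0.24 and 0.25 and OGDH, a partner in the same 2-oxoglutarate dehydrogenase, at -0.72, -0.50 and 0.04. The 75 mitochondrial ribosomal proteins had medians of -0.08, 0.01 and 0.02, with 11 higher and 11 lower. MRPL51 stood at 0.31, 0.35 and 0.42 and MRPS31 at -0.53, -0.61 and -0.31. The 22 import genes had medians of 0.04, -0.19 and 0.00, with 4 higher and 4 lower. TIMM50 stood at 0.82, 0.65 and 0.44, but its control arrays differed by -2.64 and its mean was -0.68 without control array 2. Of 3 related genes outside the pattern, HIGD1A stood at 0.10, 0.56 and 0.26 and HIGD2A at -0.16, 0.21 and -0.31.

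**Figure D5:**
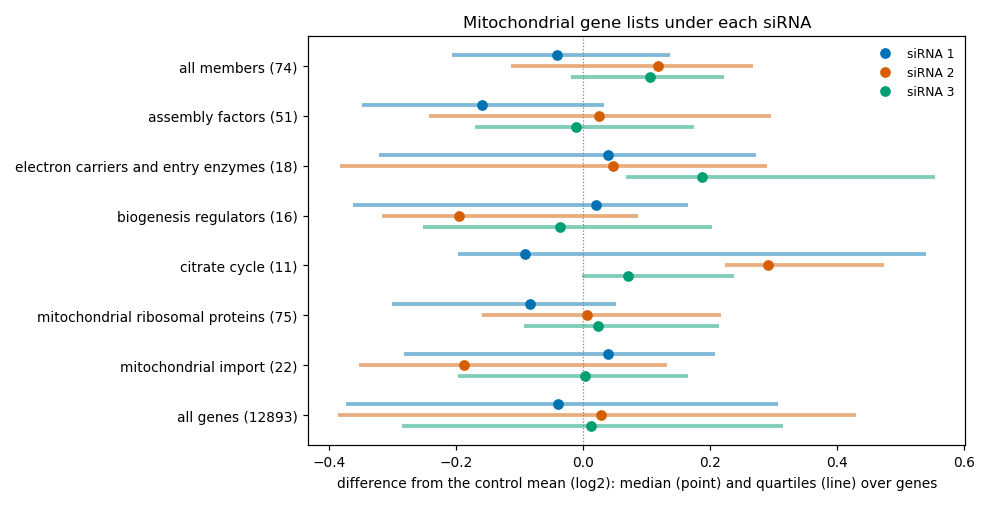
Median (point) and quartiles (line) of the difference from the control mean (log2, horizontal axis) over the genes of each list, under siRNA 1 (blue), siRNA 2 (orange) and siRNA 3 (green); the number of genes is in parentheses. The respiratory chain members lie around 0 under each siRNA, with medians of -0.04, 0.12 and 0.11, and the citrate cycle under siRNA 2 has the highest median, at 0.29.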

How the data were processed

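Biotin-labelled RNA of HepG2 cells was measured on 5 expression arrays, and MAS5 is the software named in the submitters' processing notes. The authors deposited values that were read as log2, since they lie on both sides of 0. The base, the scaling between arrays and any filter of probe sets are not given in the sources used here. Each probe set (30137 in all) was centred on a median of 0 over the 5 arrays, so levels and signal over background were absent. The number of arrays limits precision. Of the probe sets, 24151 had 1 symbol in the platform annotation, none of the members' symbols needed an update, and 10 probe sets that pair a member symbol with another were left out. Probe sets of a gene were averaged. No member probe set had arrays sharing an equal lowest value, as at a floor.

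The 3 siRNA arrays were compared with the averaged control in limma 3.58.1 (R 4.3.3; lmFit and eBayes, two-sided, Benjamini-Hochberg over 12893 genes, threshold 0.05). The code of the fit was checked on simulated data. Detection was required there only at a variance far below that of these data, so the power of the fit here was not shown. Medians and counts over members are descriptions without a test. Python 3.11.15, pandas 2.3.3 and matplotlib 3.10.9 were used. Members, lists, motifs and tests were chosen with earlier results of these data known. Named genes were the 2 highest and 2 lowest of each complex by the weakest siRNA, the widest range, fixed core subunits and isoforms, and in each other list the highest and lowest. Of the core subunits fixed, 3 had no value here. Alternatives were other normalizations, blocks, probe set rules, a filter on control agreement, a robust variance model and leaving out each array.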

Additional observations from a re-analysis of the deposited data

How the results depend on the processing

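Across 376 recomputed group values, 350 stayed within the spread between siRNAs or within 1.5 times the count. That total includes limma counts of 0, and for medians near 0 the spread was wide enough to let the sign change. In complex IV the median of the mean difference was 0.03, with an SD of 0.13 between the siRNA medians. It ran from -0.03 to 0.06 when 1 array was left out, and that of complex V from -0.06 to 0.10. Limma called 0 members in every fit run and no other gene either, the targeted KDM1B included, so this does not set members apart. At an unadjusted p under 0.05 it had 2 members after quantile normalization, 1 with the control arrays as 2 samples, and from 0 to 2 when 1 array was left out. With probe sets of the plain suffix only, 10 of the 56 members that kept a value were higher under all siRNAs. The share of all genes under this rule is not given here. The complex I medians were then -0.012 for the mean, 0.031 under siRNA 2 and 0.023 under siRNA 3, over fewer members. With the median of probe sets, the complex III medians were -0.027, 0.060 and 0.12 for siRNAs 1, 2 and 3. After quantile normalization its siRNA 3 median was 0.12; the cause was not tested. Against the control array of its spike-in set, 8 members were lower under all siRNAs and complex V stood at -0.18 under siRNA 1. Leaving out 1 array gave from 18 to 34 members higher and from 7 to 19 lower under all siRNAs. It gave from 17 to 25 above and from 4 to 11 below the control arrays, and from -0.18 to -0.024 for complex V under siRNA 1. Without 1 siRNA only 2 must agree, which also raised the shares of all genes. Those higher rose from 17.9% to between 25.8% and 30.7%, and those lower from 18.2% to between 27.7% and 30.9%. The titles share numbers between groups. As the second control array is a technical replicate, the main fit used no pairing. Deviations of same-numbered arrays correlated across genes at 0.10 and -0.05. The deviations of the 2 control arrays from their mean are exact opposites, so these values are not independent. They can neither show nor exclude shared handling of same-numbered arrays. With the replicate block limma called 0 members and the median over members was 0.00; with the spike-in set as a block it was 0.04.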
